A study of Mus musculus with 8 samples.

Results

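The genes described here lie on the distal stretch of mouse chromosome 2. They are all genes that start at or after position 71719417 (mm10) and had 10 or more counts in at least 2 of 8 libraries, and 976 of the 2368 annotated genes of the stretch met this rule, out of 18140 in the whole data set. The members span 110.2 Mb, from Platr26 to the end of the chromosome. The members were chosen by position, and the position had been selected on the fold changes of the overexpression line, where the median of the genes beyond it stood above wild type, so every value of that line is a description of a choice already made and carries no test. Of the members, 969 passed the low-count filter of the model. The remaining genes of the stretch include 820 with no count in any library. For 27 members, 21 of them in the model, the counts that met the rule came from the overexpression libraries only. The proximal genes of the same chromosome, 522 by the same count rule and 521 in the model, and the 16384 modelled genes of the other chromosomes served as references.

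RNA was sequenced from mouse embryonic stem cells, which self-renew in culture and can form all tissues of the embryo. All 4 groups share a 129xC57BL/6 background and the genotype Rosa26Cre-ERT2/BirA-V5, an inducible recombinase and a tagged biotin ligase at a broadly active locus, and were grown on gelatin with serum and the cytokine LIF. The parental line is called wild type, the second group is TRIM71-/- (the knockout), the third carries 3'UTR(mut)/3'UTR(mut) at Mbnl1 (the mutant), and the last was made by stable transfection with MBNL1::T2A::Puromycin (overexpression). The series has 2 libraries per group and asks how TRIM71, an RNA-binding protein, and MBNL1, a splicing regulator, act on each other and on the transcriptome. Whether both libraries of a group are separate clones or cultures is not stated in the labels, so a p-value here covers the spread among these libraries alone, and anything that differs between the lines for other reasons cannot be told apart from the genotype or the transgene.

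A cell usually makes RNA from each gene copy independently, so an extra copy of a chromosome or of an arm raises the transcripts of nearly all genes on it by a similar factor, an effect called gene dosage. Where a cell lowers the output per copy so that the total stays near normal, this is called dosage compensation, and the mammalian X chromosome is its best-known case. Embryonic stem cell lines are known to acquire gains of whole chromosomes or of parts of them in culture. DNA copy number was not measured here, and whether it differs between the lines was not tested.

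Total counts ranged from 75056306 to 86508533 per library. All 8 embryonic stem cell markers on the marker list were detected, with a summed level of 4206 to 5353 CPM (counts scaled to a common library size with TMM factors). Primitive endoderm markers summed to 41.1 and 48.9 CPM (wild type), 7.13 and 7.84 (knockout), 60.5 and 73.0 (mutant) and 33.1 and 26.4 (overexpression). Fibroblast and mesoderm markers summed to at most 8.33 and 2.31 CPM, trophoblast markers to 36.5 to 82.4 CPM and neural markers to 88.5 to 149 CPM. Trim71 stood at 630 and 628 CPM (wild type), 101.2 and 105.4 (knockout), 695 and 694 (mutant) and 644 and 667 (overexpression). Mbnl1 stood at 25.9 and 26.1 CPM (wild type), 48.8 and 50.9 (knockout), 28.6 and 27.5 (mutant) and 193 and 195 (overexpression), where reads of the transgene and of the endogenous gene are counted together.

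Promoter sequences are given for a few chosen genes on either side of the position and among the members that stood above or below wild type. They do not represent those sets. Each line gives the 30 bases just before the gene's start in the RefSeq promoter table (GRCm38.p6), read 5′ to 3′ on the gene's strand, and capitals mark CG pairs, which cluster in the CpG islands of broadly expressed genes. Hat1, a histone acetyltransferase, and Metap1d, a mitochondrial methionine aminopeptidase, lie just outside. Pdk1, a kinase that restrains pyruvate dehydrogenase, lies just inside. Spint1, a membrane-bound protease inhibitor, stood far above wild type in overexpression. Dstn, an actin-severing protein, Slc27a2, a fatty acid transporter, Pltp, a phospholipid transfer protein, and Foxa2, a transcription factor of endoderm, stood below it.
Hat1 (chr2:71389230-71389259, plus strand): tcacttcCGgccCGggagCGCGCGggttga
Metap1d (chr2:71453308-71453337, plus strand): ctccagtgggCGgagctgCGaggctctctt
Pdk1 (chr2:71873194-71873223, plus strand): cCGtgctgtcCGtgctcCGcctaCGggggc
Spint1 (chr2:119237330-119237359, plus strand): taatgccagtccCGcccCGCGctctgactc
Dstn (chr2:143915301-143915330, plus strand): agCGtcctgtgtccacccttcaCGgagcag
Slc27a2 (chr2:126552994-126553023, plus strand): acaggcacctgcagcCGagcCGccaccCGc
Pltp (chr2:164857709-164857738, minus strand): gtcccctcccagcccccaaggaggagggaa
Foxa2 (chr2:148046970-148046999, minus strand): ggtgggtagccagaaagaggactgaggtaa
The short stretches before Pltp and Foxa2 hold no CG pair, and their whole promoter entries of 300 bases, from 250 before to 50 after the start, hold 13 and 12. Those of Hat1, Metap1d, Pdk1 and Spint1 hold 32, 27, 25 and 28. Dstn, Slc27a2 and Smox, a member whose stretch is not shown, also stood below wild type and hold 31, 25 and 27. A low CG count was thus not shared by all genes of that kind.

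In the overexpression libraries the distal genes stood above wild type together. They took 3.83% and 3.90% of all counts in the wild-type libraries and 5.57% and 5.50% in overexpression, and the groups did not overlap. The means were 3.87% ± 0.0537 (SD, n = 2) and 5.53% ± 0.0502 (SD, n = 2). The knockout libraries, at 3.87% and 3.89%, lay between the wild-type libraries, and the mutant libraries had 3.97% and 3.90%. Proximal genes took 2.26% to 2.39% in every library, overexpression included, at 2.31% and 2.28%. The counts of distal genes divided by those of proximal genes came to 2.41 in each overexpression library, against 1.69 and 1.68 in wild type, 1.71 in each knockout library and 1.66 and 1.68 in the mutant. Set against the counts of all other chromosomes, the distal share in overexpression was 1.46 times that of wild type, while the knockout and the mutant came to 1.00 and 1.02 times.

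**Figure D1:**
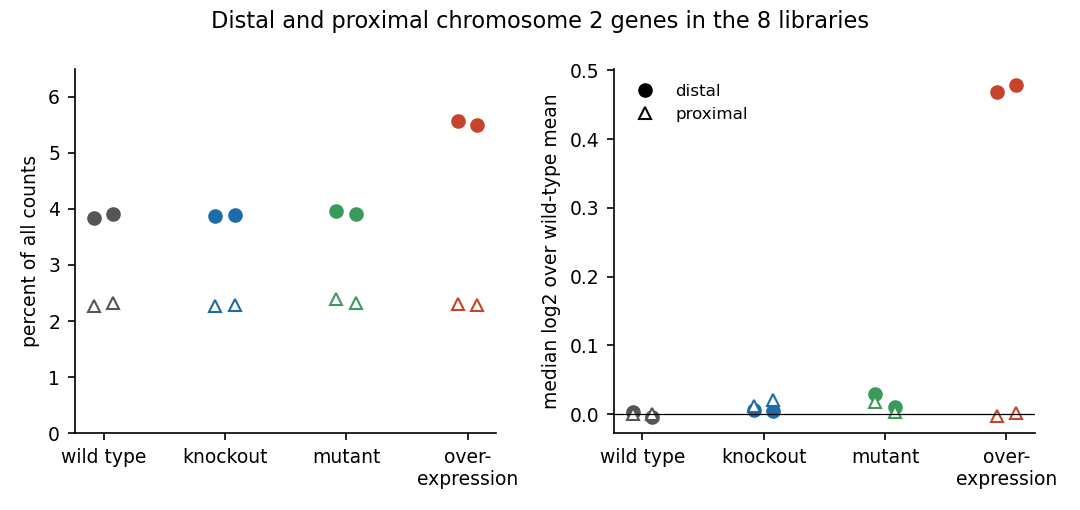
Left, percent of all counts that fell on distal (filled circles) and proximal (open triangles) chromosome 2 genes, 1 symbol per library. Right, the median over genes of at least 5 CPM of log2(CPM + 0.5) less its wild-type mean; the overexpression circles lie at 0.47 and 0.48, while all other symbols lie within 0.03 of 0.

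The same appeared gene by gene. Over the 969 modelled members the median log2 change of overexpression against wild type was 0.48, or 1.40-fold, and the middle 50% of genes lay between 0.21 and 0.80. The proximal median was -0.05 and that of the other chromosomes -0.03. In overexpression 657 members were called higher and 62 lower at an adjusted p under 0.05 by edgeR, 719 in all, where 27.7% of all tested genes were called higher, 27.1% lower and 54.8% either way. The rule rests on this contrast, so nothing is read from those counts. With the members that met the rule through overexpression only left out, the distal median exceeded the proximal one by 0.52, against 0.53 with all of them. As a reference, 3 gene copies over 2 would give 1.5-fold, a log2 value of 0.58.

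The comparisons that share no library with overexpression, apart from a spread pooled over all groups, gave other values. In the knockout the median log2 change of the members was -0.01, with the middle 50% of genes between -0.23 and 0.22. There 404 of 969 members passed the test, beside 44.8% of all tested genes: 211 rose (21.8%) and 193 fell (19.9%), beside 24.1% and 20.7%. In the mutant the median was 0.00, and 77 members rose (7.95%) and 54 fell (5.57%), beside 8.02% and 7.50% of all tested genes. Together these were 131 members, beside 15.5% of all tested genes. Without wild-type replicate 1 there were 70, and the share of all tested genes in that fit is not given here. Between knockout and mutant, 214 members were higher in the knockout and 197 lower, 22.1% and 20.3%, where all tested genes gave 24.4% and 21.1%. All of these shares lay near the background. Knockout and mutant were both compared with the same wild-type libraries, so the first 2 of these comparisons are not independent. Measured from the mutant instead of from wild type, the distal median of overexpression was 0.48, and the knockout stood 0.51 below overexpression. These medians again use the overexpression libraries on which the position was selected, so they carry no test.

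**Figure D2:**
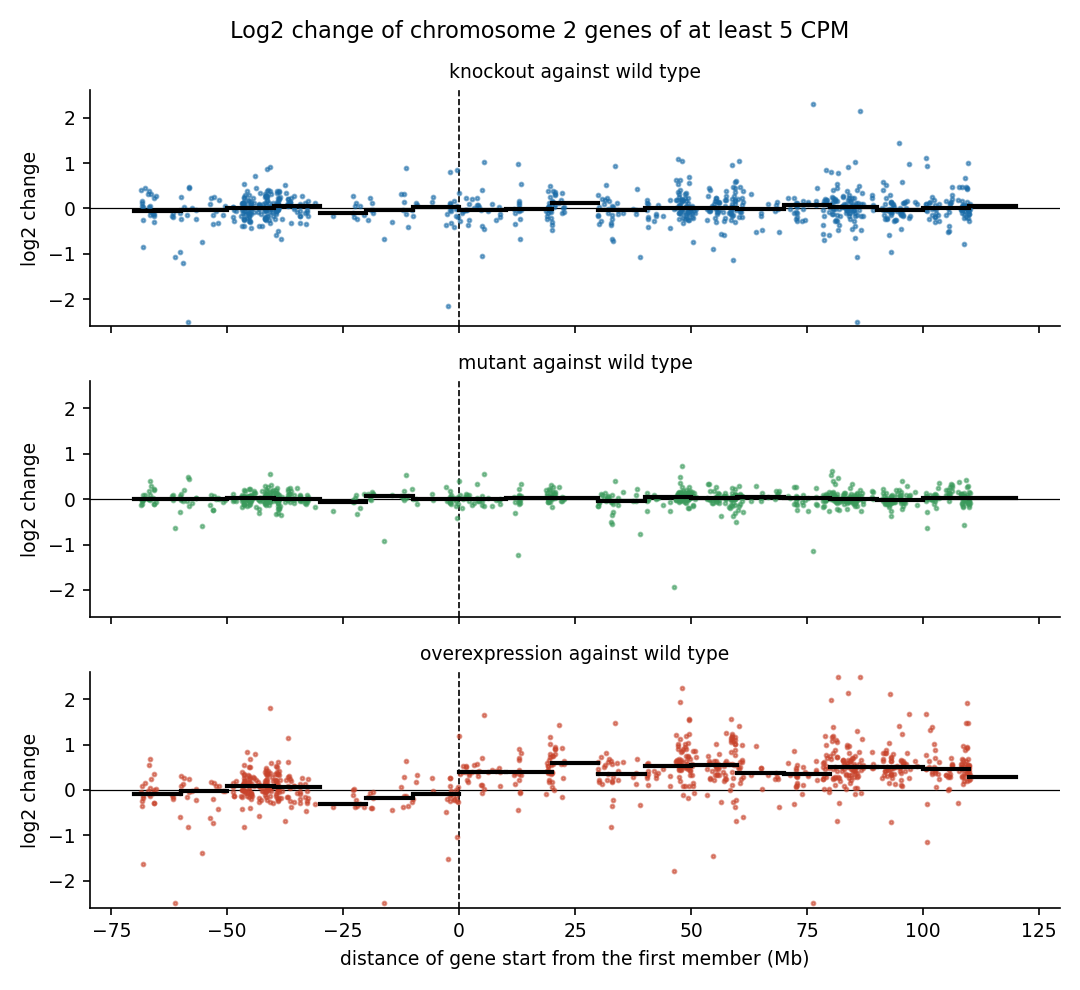
Log2 change against wild type (vertical axis) of chromosome 2 genes of at least 5 CPM by distance of the gene's start from the first member in Mb (horizontal axis), for the 3 altered lines; values past 2.5 in either direction are drawn at 2.5. Black bars are medians of 10 Mb windows, which in overexpression lie between 0.29 and 0.60 to the right of the dashed line and between -0.32 and 0.08 to its left, and dots are single genes.

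The position was selected on the overexpression values, so a change of level at it is part of that choice and is only described. The 5 modelled genes nearest to the position on its proximal side were Dync1i2, a dynein subunit, Slc25a12, a mitochondrial aspartate-glutamate carrier, Hat1, Metap1d and Dlx2, a homeobox factor. Their levels in the 2 wild-type and then the 2 overexpression libraries were 110 and 113 against 95.2 and 92.8 CPM for Dync1i2, and 43.8 and 41.0 against 21.4 and 19.9 CPM for Slc25a12. Hat1 stood at 330 and 334 against 275 and 277 CPM, and Metap1d at 15.0 and 15.1 against 16.4 and 15.2 CPM. Dlx2 was barely detected, at 0.190 and 0.0928 against 0.0335 and 0.0115 CPM. None of these genes but Metap1d stood above wild type in both overexpression libraries, and the log2 change of Metap1d was 0.07.

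On the distal side the first 5 were Platr26, a noncoding RNA, Itga6, which encodes integrin alpha 6, a laminin receptor of stem cells, and 3 noncoding genes whose spans lie within that of Itga6, Gm13663, Gm17250 and Gm13662. Platr26 stood at 0.697 and 0.782 CPM in wild type and at 3.27 and 3.4 CPM in overexpression. Itga6 had 203 and 206 CPM (wild type), 259 in each knockout library, 270 and 267 (mutant) and 474 and 465 (overexpression). Its overexpression libraries were the highest and stood 2.30-fold above wild type. Itga6 also rose in the knockout (log2 change 0.34, SE 0.03, adjusted p = 5.84e-07) and in the mutant (0.39, SE 0.03, adjusted p = 8.55e-07). Gm17250 had 0.317 and 0.424 CPM in wild type and 0.870 and 0.898 in overexpression, whereas Gm13663 and Gm13662 had log2 changes of -0.01 and -0.13 and libraries that overlapped wild type. The next coding gene, Pdk1, stood at 258 and 259 CPM in wild type and at 329 and 327 CPM in overexpression, 1.27-fold higher. Over all tested genes, 37.7% stood above wild type in both overexpression libraries and 38.8% below. From 10 to 5 Mb before the position, 11 genes of at least 1 CPM had a median log2 change of -0.01, with 5 above and 4 below. From 5 to 2 Mb before it, 7 such genes had a median of -0.48, with 1 above and 6 below. In the last 2 Mb before the position the 17 such genes had a median of -0.13, with 4 above and 11 below. In the first 2 Mb after it the 14 such genes had a median of 0.45, with 12 above and 0 below. They include Cdca7, a cell cycle gene that helps maintain DNA methylation, at 228 and 225 CPM in wild type and 320 and 330 in overexpression, and Ola1, an ATPase of the Obg family, at 168 and 174 against 250 and 242 CPM.

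The displacement reached the far end of the chromosome. Among genes of at least 5 CPM, each 10 Mb window up to 110 Mb from the position had a median between 0.34 and 0.60 in overexpression. The lowest was the window from 70 to 80 Mb (0.34, 43 genes) and the highest that from 20 to 30 Mb (0.60, 18 genes). The last window held 2 genes with a median of 0.29. In the knockout the window medians lay between -0.04 and 0.12 and in the mutant between -0.04 and 0.04. Near the end, Prpf6, a spliceosome component, stood at 170 and 169 CPM in wild type and at 237 in each overexpression library, and Pcmtd2, among the last coding genes, at 25.3 and 27.5 against 34.1 and 32.1 CPM.

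Set against genes of other chromosomes, the size of the excess hardly moved with the level of the gene. Members were split at the quartiles of mean level of chromosome 2 genes, 0.526, 8.39 and 39.1 CPM. From the lowest to the highest quartile, the median log2 change of members in overexpression was 0.41 (226 genes), 0.54 (247), 0.51 (244) and 0.46 (252). Less the median of other-chromosome genes of the same level, it was 0.51, 0.50, 0.50 and 0.52. Less the proximal median of the same level, it was 0.90, 0.43, 0.47 and 0.52. The proximal median of the lowest quartile was -0.49. The proximal set holds 69 genes that are not coding, long noncoding or pseudogenes, with a median of -2.25 in overexpression. The middle 50% of members narrowed with level, from a width of 1.19 in the lowest quartile to 0.30 in the highest. In the knockout the quartile medians were -0.07, -0.02, 0.03 and -0.02, and in the mutant -0.17, -0.03, 0.02 and 0.03.

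**Figure D3:**
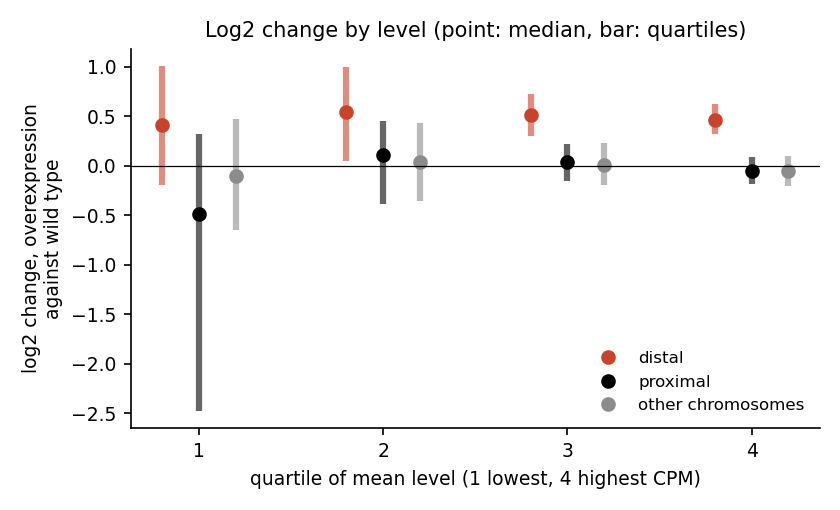
Median (point) and quartiles (bar) of the log2 change of overexpression against wild type, by quartile of mean level over the 8 libraries, for distal members, proximal genes and genes of other chromosomes. The distal medians lie at 0.41 to 0.54 at all levels. In the lowest quartile the genes of all 3 sets lie under 0.53 CPM. There the bar is 2.79 wide for proximal genes, 1.19 for distal members and 1.13 for other chromosomes.

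The spread of the overexpression values among the members is a description, since the rule rests on them. Among genes of at least 5 CPM on average over the 8 libraries, a level that a member can also reach through overexpression, the 543 members had a median of 0.48 and the 9267 genes of other chromosomes one of -0.03, a shift of 0.51, or 1.42-fold. The shift was 0.49 where the lowest 10% of the genes end, 0.50 at the lower quartile, 0.50 at the upper quartile and 0.59 where the highest 10% begin, and the middle 50% of the genes was 0.37 wide in both sets. Between 1.2-fold and 1.8-fold of wild type lay 346 of the 543 members (63.7%). At or under a log2 change of 0 were 37 members (6.81%). As a comparison, 619 genes of other chromosomes (6.68%) lay at or under a log2 change of minus the shift.

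**Figure D4:**
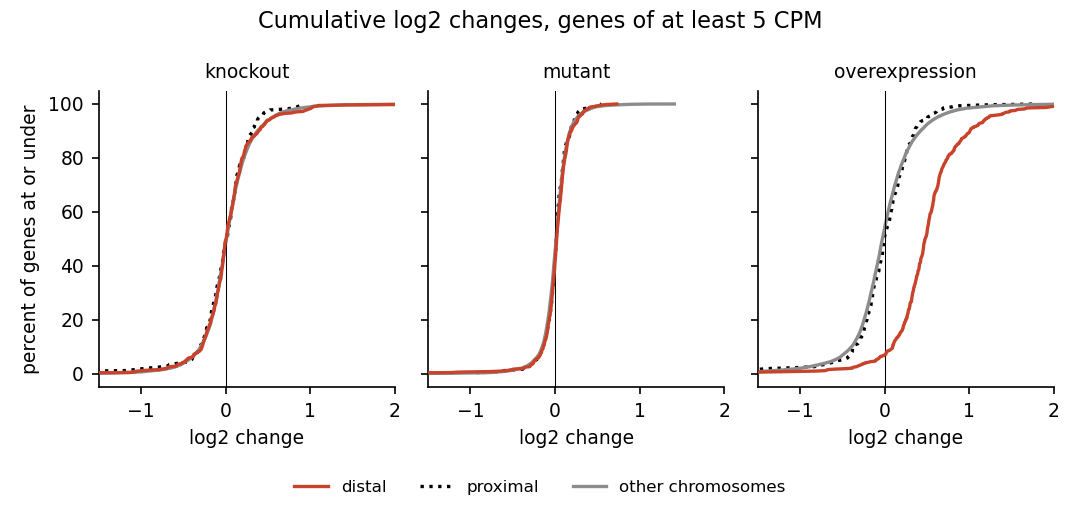
Percent of genes of at least 5 CPM with a log2 change at or under the value on the horizontal axis, for distal members (red), proximal genes (dotted) and genes of other chromosomes (grey). In the knockout and the mutant the curves lie close to each other, and in overexpression the distal curve lies to the right, by 0.51 at the median.

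The values were also split by gene class, with no test. The 784 modelled protein-coding members had a median log2 change of 0.51 in overexpression, and 88.9% were above 0. The 89 long noncoding members had a median of 0.49, with 73.0% above 0, and the 21 of other classes 0.40. The 75 pseudogenes, copies of genes that no longer make the protein, had a median of -0.08, and 46.7% of them were above 0. Pseudogenes of other chromosomes had a median of -0.17 with 32.5% above 0, so the distal ones stood higher by less than coding members did. The difference was also present at low levels. In the lowest level quartile 44 pseudogene members had a median of -0.03, 49 long noncoding members 0.49 and 119 coding members 0.64. Reads of a processed pseudogene may come from its parent gene elsewhere in the genome, and how the authors' counting treats such reads was not tested.

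The members were then read by role, with lists of all levels. Of all 969 modelled members, 75.8% stood above wild type in both overexpression libraries and 10.5% below in both, and of the 531 of at least 5 CPM in wild type 89.3% and 5.65%. Over all tested genes, 37.7% stood above and 38.8% below. The counts of each list are given to be read against these shares, and those of the knockout and the mutant against the shares of genes that rose or fell given above. No difference between lists was tested. The first group is the machinery of the cell cycle, replication and repair. All 32 modelled genes of the list had both overexpression libraries above both wild-type libraries, with a median of 0.52 and a range from 0.10 for Trp53bp1, a DNA damage response protein, to 1.17 for Cenpb, a centromere protein. Pcna, the sliding clamp of DNA polymerases, stood at 364 and 337 CPM (wild type), 340 and 347 (knockout), 392 and 370 (mutant) and 500 and 498 (overexpression). Mybl2, a transcription factor of cell cycle genes, stood at 530 and 505 CPM (wild type), 676 and 687 (knockout), 572 and 566 (mutant) and 919 and 898 (overexpression). For both genes the overexpression libraries were the highest of the 8. The spindle checkpoint kinase Bub1b had 324 and 328 CPM in wild type and 520 and 507 in overexpression, and the mitotic kinase Aurka 130 and 129 against 216 and 225 CPM. E2f1, which drives entry into S phase, was at 17.3 and 18.5 against 28.8 and 27.3 CPM. In the knockout 13 of the 32 genes rose and 5 fell. Those that rose include Mybl2 (log2 change 0.40, SE 0.03, adjusted p = 1.93e-07) and Rbl1, a relative of the retinoblastoma protein, which went from 20.9 and 21.6 CPM to 43.1 in each knockout library (1.02, SE 0.05, adjusted p = 5.24e-10). In the mutant 5 rose and 1 fell.

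All 19 genes of the proteasome, ubiquitin and autophagy list stood above wild type in both overexpression libraries, where the members as a whole were also mostly above, with a median of 0.50 and a range from 0.26 for Cops2, a subunit of the COP9 signalosome, to 0.96 for Vps39, which helps tether vesicles to lysosomes. Psmc3, a proteasome ATPase, stood at 276 and 267 CPM in wild type and at 356 and 357 in overexpression, and Psma7, a subunit of the proteasome core, at 215 and 207 against 252 and 261 CPM. In the knockout 4 of the 19 rose and 6 fell, and in the mutant 2 rose and 2 fell.

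Of 27 genes of RNA processing and translation, 25 stood above wild type in overexpression and 1 below, near the share of members of at least 5 CPM, with a median of 0.46. Nop56, a core protein of the nucleolar particles that methylate ribosomal RNA, was at 546 CPM in each wild-type library and at 977 and 975 in overexpression. It shares 8.0% of its exon sequence with another annotated gene on its strand. Snrnp200, a spliceosome helicase, stood at 568 and 589 against 896 and 914 CPM, and Caprin1, an RNA-granule protein, at 1175 and 1144 against 1473 and 1488 CPM. All 3 were separate from wild type. Snrpb, a core spliceosome protein, overlapped wild type at 307 and 286 against 283 and 306 CPM. Myef2, a repressor that binds single-stranded nucleic acid, was the one below, at 192 and 200 against 184 and 178 CPM. In the knockout 1 gene of the list rose and 8 fell, and in the mutant 5 rose and 0 fell, among them Snrnp200 (log2 change 0.26, SE 0.03, adjusted p = 6.15e-05).

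Of 26 genes of mitochondria and metabolism, 23 stood above wild type in overexpression and 1 below, again near that share, with a median of 0.48. Idh3b, a subunit of the isocitrate dehydrogenase of the citric acid cycle, stood at 133 and 135 CPM in wild type and at 281 and 277 in overexpression. Mtch2, a mitochondrial outer membrane protein, had 233 and 235 against 319 in each library. Ahcy, which breaks down S-adenosylhomocysteine, overlapped wild type, at 120 and 113 against 113 and 123 CPM. The member below was Slc27a2. Pdk1 stood above in overexpression and fell in the knockout, from 258 and 259 to 214 and 211 CPM (log2 change -0.29, SE 0.03, adjusted p = 3.31e-06). The knockout raised 8 of the 26 and lowered 5, and in the mutant 0 passed in either direction.

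Of 32 regulators of pluripotency, chromatin and early development, 24 stood above wild type in overexpression and 7 below, with a median of 0.35. Sall4, a zinc-finger factor of the pluripotency network, had 567 and 535 CPM (wild type), 467 and 478 (knockout), 592 and 566 (mutant) and 658 and 675 (overexpression), so its excess was 1.21-fold. Ncoa3, a coactivator of nuclear receptors and of Esrrb, had 319 and 293 CPM in wild type and 424 and 444 in overexpression. Dnmt3b, a de novo DNA methyltransferase, lay below instead, at 143 and 144 against 116 and 120 CPM, and Mga, which pairs with Max in a repressive complex, at 348 and 337 against 313 and 323 CPM. Dnmt3b also fell in the knockout (log2 change -0.38, SE 0.04, adjusted p = 5.37e-07) and in the mutant (-0.24, SE 0.04, adjusted p = 0.0002). Mga fell in the knockout (-0.33, SE 0.04, adjusted p = 2.32e-06) and rose in the mutant (0.18, SE 0.04, adjusted p = 0.003). In the knockout 7 of the list rose and 13 fell, and in the mutant 7 rose and 4 fell.

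Genes of adhesion, matrix and the cytoskeleton went both ways. In overexpression 14 of 21 stood above wild type and 5 below, with a median of 0.46 and a range from -1.82 for Myl9, a myosin light chain, to 2.72 for Tgm2, a crosslinking enzyme. Lama5, a laminin chain, had 357 and 336 CPM in wild type and 414 and 449 in overexpression, and the kinase Src 27.9 and 26.4 against 68.4 and 64.7 CPM. Thbs1, a matrix glycoprotein, had 13.3 and 15.1 CPM (wild type), 14.7 and 13.6 (knockout), 3.75 and 3.64 (mutant) and 4.20 and 3.95 (overexpression). It fell in the mutant by 1.94 on the log2 scale (SE 0.08, adjusted p = 1.16e-09), and its overexpression libraries stood beside those of the mutant, far from wild type. In the knockout 8 of the 21 rose and 5 fell, and in the mutant 3 rose and 5 fell.

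The list of transcription factors of differentiated tissues has 33 genes, 18 of which were modelled. Of these, 3 stood above wild type in overexpression and 10 below, beside 38.8% of all tested genes below, with a median of -0.73. Foxa2 had 4.26 and 2.94 CPM (wild type), 17.8 and 18 (knockout), 1.55 and 1.72 (mutant) and 0.636 and 0.576 (overexpression). It rose in the knockout (log2 change 2.31, SE 0.11, adjusted p = 8.33e-10) and fell in the mutant (-1.14, SE 0.16, adjusted p = 0.000164). Sox18, an endothelial factor, ran the same way, at 3.70 and 2.64 CPM (wild type), 12 in each knockout library, 1.57 and 1.5 (mutant) and 1.08 and 0.990 (overexpression). Pax6, a factor of eye and brain, had 6.68 and 6.47 CPM (wild type), 2.81 and 2.71 (knockout), 6.82 and 6.17 (mutant) and 2.74 and 2.99 (overexpression). The summed primitive endoderm markers given above were lowest in the knockout, where Foxa2 was highest, lower than wild type in overexpression and higher in the mutant. In overexpression Sox7 of that list was higher (3.46 and 3.53 against 5.65 and 5.72 CPM) and its other markers lower. Trophoblast markers summed to 82.4 CPM (each wild-type library), 64.3 and 62.9 (knockout), 36.5 and 44.6 (mutant) and 63.7 and 63.1 (overexpression). Krt8 and Krt18 made up most of this sum. In the knockout Krt8, Krt18 and Cdx2 were lower. Krt7 (1.19 and 0.915 against 2.91 and 2.93 CPM) and Gata3 (0.367 and 0.358 against 0.711 and 0.947 CPM) were higher there. Neural markers summed to 126 and 130 CPM (wild type), 88.5 and 91.1 (knockout), 128 and 118 (mutant) and 149 and 147 (overexpression). The neural list includes Pax6, which was lower in overexpression, and Nes, which lay within the wild-type range there, while Sox1 (10.3 and 11.7 against 20.5 and 18.5 CPM) and Tubb3 (72.8 and 69.9 against 87.2 in each library) were higher. The part of such cells in these values was not tested. In bulk RNA, fewer cells of a type and less RNA per cell cannot be told apart. In the knockout 4 of the 18 rose and 8 fell, and in the mutant 1 rose and 5 fell.

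Of 10 genes reported as imprinted, that is, expressed mainly from the maternal or the paternal copy in at least some tissues, 8 stood above wild type in overexpression and 1 below. The one below was Wt1, a transcription factor of kidney and gonad, with 3.03 and 3.36 CPM (wild type), 0.396 and 0.437 (knockout), 3.19 and 2.85 (mutant) and 0.491 and 0.507 (overexpression). Wt1 also fell in the knockout (log2 change -2.93, SE 0.16, adjusted p = 2.33e-09), the lowest value of the list there. Gnas, which encodes a G protein subunit, had 195 and 189 CPM in wild type and 251 and 246 in overexpression, and Nespas, an antisense transcript of the same locus, 11.5 and 13.1 against 23.2 and 21.9 CPM. H13, a signal peptide peptidase, and Mcts2, a retrogene within an H13 intron, had log2 changes of 0.11 and 0.88. H13 stood at 40.8 and 37.8 against 41.5 and 43.6 CPM, and Mcts2 at 15.5 and 15.3 against 27.6 and 29.0 CPM. Blcap stood at 27.3 and 27.4 against 35.7 and 35.5 CPM. Nnat, a paternally expressed gene inside Blcap, overlapped wild type at 7.07 and 7.13 against 6.58 and 7.99 CPM, whereas it fell in the knockout to 1.30 and 1.17 CPM (log2 change -2.52, SE 0.12, adjusted p = 5.34e-10). Counts per gene do not show which parental copy the reads came from. In the knockout 2 of the 10 rose and 8 fell, and in the mutant 0 passed.

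The remaining sets were small. Of 8 known or proposed p53 targets, 6 stood above wild type in overexpression and 2 below, with a median of 0.70. Tgm2 had the highest change, at 15.3 and 16.5 CPM in wild type and 117 and 92.3 in overexpression, and rose in the knockout to 70.6 and 69.2 CPM (log2 change 2.14, SE 0.13, adjusted p = 4.23e-05). Chac1, which degrades glutathione, had 16.3 and 17.5 CPM in wild type and 36.1 and 37.1 in overexpression. In the knockout 3 of the 8 rose and 3 fell, and in the mutant 1 rose and 2 fell. Genes named Zfp, mostly zinc-finger proteins, numbered 22, and 21 had a log2 change above 0 in overexpression, with a median of 0.51. In the knockout 3 of them rose and 9 fell, with a median of -0.10.

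Some members stood far higher than the rest. Nol4l, a nucleolar protein relative, had 2.67 and 2.78 CPM (wild type), 4.94 and 4.47 (knockout), 3.87 and 3.72 (mutant) and 17.2 and 16.7 (overexpression). Its overexpression libraries stood 6.21-fold above wild type, next after Tgm2 among the members covered by the naming rule. The 5 CPM of that rule is a mean over the 8 libraries, which a member can reach by being high in overexpression. Nol4l lay under 5 CPM in every library of the other groups. Acss2, named below, averaged 2.78 CPM in wild type and 12.2 in overexpression. Itpka, a kinase that phosphorylates inositol trisphosphate, had 5.35 and 4.64 CPM (wild type), 10.4 and 10.3 (knockout), 7.76 and 8.83 (mutant) and 23.6 and 23.8 (overexpression). Spint1 had 45.8 and 43.2 CPM (wild type), 68.2 and 69.0 (knockout), 56.2 and 57.5 (mutant) and 172 and 171 (overexpression). Both genes rose in the knockout as well (log2 changes 1.05 and 0.62, SE 0.08 and 0.04, adjusted p = 6.73e-08 and 7.36e-09) and in the mutant (0.73 and 0.35, SE 0.08 and 0.04, adjusted p = 2.24e-05 and 1.83e-05). Wfdc2, a small secreted protease inhibitor, the acetyl-CoA synthetase Acss2, the riboflavin transporter Slc52a3 and the helicase Helz2 stood 3.76-fold to 4.38-fold above wild type in overexpression. Of the 543 members of at least 5 CPM on average, 58 (10.7%) stood at least 2-fold above wild type. That average includes the overexpression libraries. As a comparison, 7.76% of the genes of other chromosomes stood at or above a log2 change of 1 less the shift of 0.51.

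At the other end, 57 of the 531 members of at least 5 CPM in wild type did not have both overexpression libraries above both wild-type libraries (10.7%). Of these, 27 overlapped wild type, as did 16.8% of all genes of this level, and 30 lay below it in both libraries. Among 273 proximal genes 158 were not above (57.9%). In the knockout 217 of the 531 members stood above and 205 below, beside 41.8% and 39.0% of all genes of this level, and in the mutant 175 and 112, beside 31.6% and 24.9%. Of all 10040 genes of this level, 39.6% stood above wild type in overexpression and 43.6% below. Of the 57 members, 50 were protein-coding and 5 were pseudogenes. Their median level in wild type was 18.1 CPM, against 35.0 CPM for the 474 that stood above.

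Of the 531, 453 members stood in both overexpression libraries above all 6 other libraries, and 10 stood below all 6, among them Slc27a2, Tfap2c, Platr14, Smox, Lrrn4, Dstn, Gm14292, Snrpert and Accsl. Over all genes of this level 23.4% stood above all 6 and 28.2% below. Dstn was the most abundant of the 10, at 397 and 410 CPM (wild type), 379 and 377 (knockout), 386 and 364 (mutant) and 325 and 328 (overexpression). Its overexpression libraries were the lowest of the 8, 1.24-fold below wild type. Slc27a2 had 29.4 and 27.4 CPM (wild type), 15.1 and 15.2 (knockout), 27.1 and 26.2 (mutant) and 9.66 and 11.2 (overexpression). It fell in the knockout by 0.91 on the log2 scale (SE 0.06, adjusted p = 2.11e-08) and stood at -0.09 in the mutant (adjusted p = 0.357). Tfap2c, a transcription factor of trophoblast and germ cells, had 29.8 and 27.0 CPM (wild type), 54.0 and 55.2 (knockout), 18.8 and 17.6 (mutant) and 13.3 and 12.2 (overexpression). It rose in the knockout (log2 change 0.94, SE 0.06, adjusted p = 3.6e-09) and fell in the mutant (-0.64, SE 0.06, adjusted p = 2.52e-06). Smox, a spermine oxidase, ran in the same order, with 18.9 and 19.1 CPM (wild type), 27.9 and 30.1 (knockout), 13.2 and 13.8 (mutant) and 12.2 and 11.5 (overexpression). Snrpert and Gm14292 are processed pseudogenes, whose reads may belong to near-identical copies.

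Pltp stood below wild type but not below all other libraries. It had 90.1 and 83.3 CPM (wild type), 44.3 in each knockout library, 65.3 and 69.6 (mutant) and 54.8 and 51.9 (overexpression). It fell in the knockout by 0.97 on the log2 scale (SE 0.05, adjusted p = 5.34e-10) and in the mutant by 0.36 (SE 0.05, adjusted p = 7.13e-05). Jag1, a Notch ligand, stayed near wild type in overexpression at 22.9 and 22.5 CPM, beside 22.3 and 22.5 in wild type, and fell in the knockout to 15.9 and 16.5 CPM (log2 change -0.47, SE 0.05, adjusted p = 1.48e-06).

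**Figure D5:**
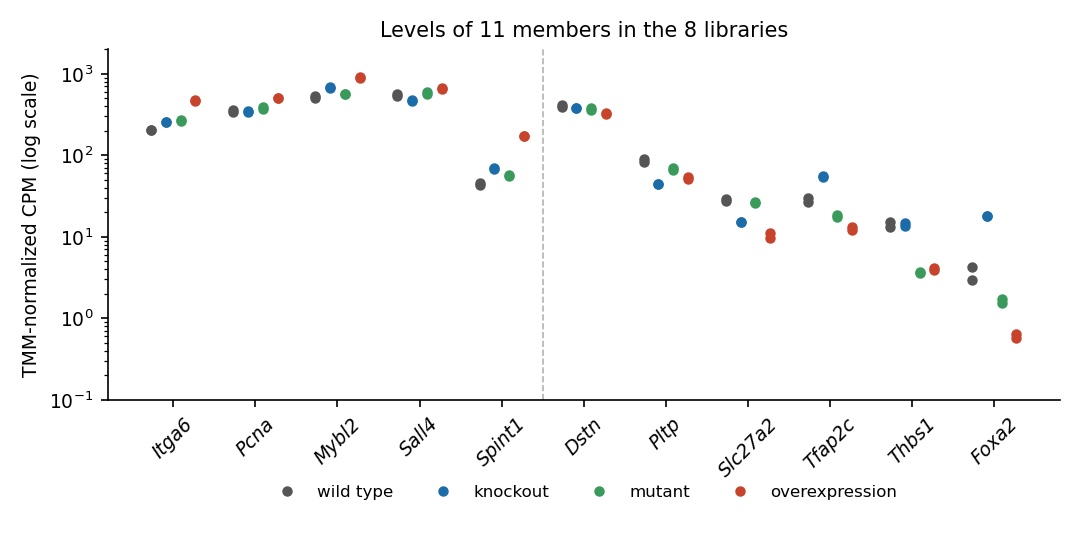
TMM-normalized CPM (log scale) of 11 members, 1 point per library and 1 colour per group. The 5 genes left of the dashed line have both overexpression libraries above all others, and the 6 to its right have them below both wild-type libraries.

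Promoters of members that did and did not stand above wild type were compared in the RefSeq table. Of 515 coding members of at least 5 CPM in wild type, 446 were matched by symbol. The median number of CG pairs per 300 bases was 22 for the 404 matched members above wild type, 18 for the 21 that overlapped and 18 for the 21 below, and 22 for 248 proximal genes. The letters TATAAA, searched on both strands, occurred in 4.21% of the promoters above, in 3 of 21 of each other set (14.3%), in 5.24% of the proximal ones and in 14.2% of all 27025 promoters of the table. These are descriptions of small sets and carry no test.

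In the knockout and the mutant, members changed in both directions with no common displacement. Rankings here cover members of at least 5 CPM on average over the 8 libraries, with a name of their own and no overlap with wild type and so leave out members of lower level such as Ehf (log2 change 2.49) and Insm1 (-3.44), which changed more in the knockout. Those that rose most in the knockout were Foxa2, Tgm2, Prex1, Fam210b, Bahd1, Itpka, Rassf2 and Rbl1, and those that fell most were Nnat, Slc4a11, Ano3, Platr27, Ttn, Pltp, Slc27a2 and Tcfl5. The average of 5 CPM includes the knockout libraries, so a member can reach it by being high there. Foxa2 lay under 5 CPM in every library of the other groups and entered the rankings through the knockout only. Fam210b and Rassf2 lay under 5 CPM in every wild-type and mutant library. Prex1, an exchange factor for the GTPase Rac, went from 6.33 and 5.42 CPM to 16.2 and 15.6 (log2 change 1.43, SE 0.09, adjusted p = 5.9e-09). Ttn, the giant muscle protein titin, went from 38.4 and 38.6 to 19.1 and 18.3 CPM (-1.04, SE 0.05, adjusted p = 1.87e-10). Neither overlapped wild type. In the mutant those that rose most under the naming rule included Itpka, Tcf15, Ccdc141, Slc52a3, Chac1, Nol4l and Rcn1. Tcf15, a factor of paraxial mesoderm that is also made in cells leaving naive pluripotency, went from 46.4 and 50.0 to 75.4 and 72.6 CPM (0.62, SE 0.04, adjusted p = 1.76e-07). The lowest in the mutant by the same rule were Thbs1, Tfpi, Foxa2, Ano3, Tfap2c, Tcfl5, Qser1 and Platr14. Tfpi, an inhibitor of blood coagulation, went from 33.3 and 33.8 to 14.1 and 14.5 CPM in the mutant (-1.23, SE 0.05, adjusted p = 2.36e-10) and to 65.5 and 66.8 in the knockout (0.98, SE 0.04, adjusted p = 1.46e-10). Qser1, which helps keep developmental promoters free of DNA methylation, did not pass in the mutant (-0.55, SE 0.17, adjusted p = 0.131). It had 95.4 and 70.2 CPM in wild type and 56.5 and 57.0 in the mutant, and without wild-type replicate 2 it did pass (adjusted p = 0.00066).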

How the data were processed

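Total RNA of 8 libraries was sequenced with stranded TruSeq libraries and 75 nt paired-end reads, per the labels' protocols. The authors deposited raw counts of reads per gene, aligned to mm10 with STAR 2.5.0 per the submitters' processing notes. Annotation release and strand setting: not given in the sources used here. Of 43346 genes, 42462 were matched to GENCODE M21 symbols and coordinates by identifier without version, and 884 were not.

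Genes were kept by filterByExpr (minimum count 10, total 15), which left 18055 of the 27979 that had any count. After TMM scaling, edgeR's quasi-likelihood test (edgeR 4.0.16, limma 3.58.1, R 4.3.3) was run in 1 model of the 4 groups. It had 4 residual degrees of freedom, and the biological variation coefficient was 4.17%. P-values were adjusted by Benjamini-Hochberg across all 18055 genes, with calls at an adjusted p under 0.05. With 2 libraries a side, the smallest two-sided p of an exact permutation test is 0.333, so single values per library were described without a test. Libraries within groups differed by a chi-square of 6.24 to 29.3 per degree of freedom, so counting error understates the spread.

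The members and lists were chosen with earlier results of these data known. In each comparison with wild type the naming rule takes the 8 highest and 8 lowest members of at least 5 CPM that have a name of their own and do not overlap wild type. It also takes the 4 most abundant of each list, the 6 most abundant per kb of exon and the 5 genes on either side of the position. Other genes, such as Cdca7, Ola1, Prpf6, Pcmtd2, Jag1, Src, Wt1, Sox1, Tubb3, Nes, Ehf, Insm1, Dnmt3b, Ahcy, Snrpb, Myef2, E2f1, Aurka and those at the ends of a list's range, were named after their values were seen. Some genes that the rule covers are not reported here. The procedure was tested on simulated counts. DESeq2 1.42.0, other scalings, filters and references and a replicate block were tried as alternatives. Replicate numbers did not pair libraries: differences between replicates correlated at -0.03 to 0.06.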

Additional observations from a re-analysis of the deposited data

How the results depend on the processing

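With 2 libraries per group and no measure of DNA, the values describe these libraries only. Of 124 alternative values for the 9 main results, 104 stayed close to the value given. A further 480 values covered 32 single-gene results, the highest and lowest members of the naming rule in the knockout and the mutant. Of these, 478 kept their side of the threshold and 0 reversed. Those genes were picked for large changes in the same comparisons, so this says little about other members. Close means within 1.5-fold for a count and, for a difference of medians, a move smaller than the spread between replicates. Some of these values leave out a library of a line outside the comparison, which can hardly move the result. The distal minus proximal median in overexpression, 0.53, became 0.50 with genes under 1 CPM left out, 0.49 for protein-coding genes, 0.51 with 5 Mb around the position left out, 0.52 by summed CPM, 0.51 against other chromosomes and 0.52 without members that met the rule through overexpression only. In the knockout this difference, 0.02, became -0.0296, -0.0242 and -0.005 with genes under 1 CPM left out, for coding genes and against other chromosomes. In the mutant, 0.01, it became 0.0037 with genes under 1 CPM left out, 0.0001 for coding genes and -0.0118 by summed CPM. Members not above wild type in overexpression, 57 of 531 at 5 CPM (10.7%), numbered 97 of 665 at 1 CPM (14.6%) and 26 of 352 at 20 CPM (7.39%), and in the mutant 356 of 531 (67.0%) became 234 of 352 (66.5%) at 20 CPM. Leaving out 1 library gave 304 to 441 calls in the knockout, 70 to 163 in the mutant and 660 to 733 in overexpression, differences of 0.0131 to 0.0312, 0.0074 to 0.0174 and 0.51 to 0.53, and 279 to 295, 276 to 316 and 46 to 55 members not above wild type. The last of these counts could not grow, since standing above wild type is easier with 1 library fewer, so they carry no check. With the replicate block, which pairs libraries by number, calls were 394, 122 and 715 against 404, 131 and 719. Shares of all tested genes called are not given for this setting or for those with 1 library left out. The numbers of calls thus cannot show whether members moved more than other genes. Qser1 in the mutant passed without wild-type replicate 2 (adjusted p = 0.00066) and with DESeq2 (adjusted p = 0.0201). The causes of these moves were not tested.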
